A study of Mus musculus with 6 samples.

Results

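Mitochondrial ribosomal proteins are the nuclear-encoded proteins that build the ribosome of mitochondria. They were taken here as all protein-coding genes of the count table whose symbol starts with Mrpl or Mrps followed by a number and whose counts summed to at least 60 over the 6 libraries. Of 77 such symbols in a table of 38293 genes, 76 met this rule. The remaining gene, Mrpl53, had 0 counts in all 6 libraries, and 88.0% of its exon bases are shared on the same strand with the gene model Gm42688, which held between 56 and 81 counts per library. Of the 76 members, 49 encode proteins of the large subunit and 26 proteins of the small subunit. The last, Mrps36, carries a ribosomal name but is now known as a component of the 2-oxoglutarate dehydrogenase complex. All 76 passed the filter on low counts, with sums over the libraries from 124 counts for Mrpl23 to 12695 for Mrpl42.

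The libraries came from heart tissue of 3 wild-type (WT) mice and 3 mice with a cardiomyocyte-restricted deletion of Zeb2 (Zeb2 cKO), all on a C57BL/6J background and all collected 14 days after permanent occlusion of the left anterior descending coronary artery. Zeb2 encodes a zinc finger transcription factor. By the study's methods the WT mice were Zeb2 fl/fl without Cre and the Zeb2 cKO mice Zeb2 fl/fl with Cre under the cardiomyocyte promoter of Myh6, so that the effects of Cre and of the deletion cannot be told apart. By the labels the tissue was the border region of the infarct, and by the methods the remote zone. The comparison asks how these genes stood in infarcted hearts with and without cardiomyocyte Zeb2.

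The mitochondrial ribosome makes the few membrane proteins of the respiratory chain and ATP synthase that mitochondrial DNA encodes, and its RNAs, mt-Rnr1 and mt-Rnr2, come from that DNA too. All its proteins are imported from the cytosol, so that assembly draws on both genomes. Some of these proteins descend from the bacterial ribosome and others are found only in mitochondria. Heart muscle, which depends on oxidative metabolism, is rich in mitochondria.

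The 6 libraries held between 37288174 and 51136331 counts, of which between 14301225 and 19024394 came from genes outside the mitochondrial genome. The mitochondrial rRNA mt-Rnr2 took between 50.3% and 57.1% of all counts and mt-Rnr1 between 4.36% and 5.73%. The deleted gene did not separate the groups. Zeb2 stood at 61.3, 116 and 71.9 CPM (counts over the scaled library size in units of 1e6 counts) in WT replicates 1, 2 and 3 and at 59.6, 72.6 and 66.5 CPM in Zeb2 cKO replicates 1, 2 and 3. The groups overlapped, with a log2 fold change of -0.33 ± 0.25 (SE; adjusted p = 0.957 by Benjamini-Hochberg, quasi-likelihood test of edgeR) that was -0.01 without WT replicate 2. Counts over the whole gene in whole tissue therefore gave no check of the labels. WT replicate 2 stood apart from the other libraries. Its 8 fibroblast markers summed to 9621 CPM, against 1693 and 2113 CPM in the other WT libraries and 1680 to 2326 CPM in Zeb2 cKO. Its 8 macrophage markers summed to 814 CPM, against 203 and 285 CPM in the other WT libraries and 246 to 273 CPM in Zeb2 cKO. Its 8 cardiomyocyte markers summed to 33672 CPM, against 65249 and 59990 CPM in WT and 53684 to 65417 CPM in Zeb2 cKO. Each of these markers was detected in all 6 libraries. Results are therefore given also without this library.

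As a group, the 76 genes were slightly higher in Zeb2 cKO hearts, by less than the WT libraries differed among themselves, and the difference rested largely on WT replicate 2. Summed over the members, the level was 1133, 841 and 1144 CPM in WT replicates 1, 2 and 3 and 1226, 1159 and 1032 CPM in Zeb2 cKO replicates 1, 2 and 3. WT replicate 2 was the lowest library, and Zeb2 cKO replicate 3 lay below both other WT libraries, so the groups overlapped. The means were 1039 ± 172 CPM in WT and 1139 ± 98.7 CPM in Zeb2 cKO (SD, n = 3 each). Because these are whole-tissue libraries, fewer cells of a type and less RNA per cell cannot be told apart.

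The share of counts outside the mitochondrial genome that fell on the members gave a similar picture. It was 0.298%, 0.251% and 0.307% in WT and 0.331%, 0.322% and 0.291% in Zeb2 cKO, with means of 0.285 ± 0.0301% and 0.315 ± 0.0205% (SD, n = 3 each). Again the lowest was WT replicate 2. The balance of the subunits hardly moved between libraries. Counts of large subunit genes over counts of small subunit genes were 2.36, 2.39 and 2.34 in WT and 2.32, 2.38 and 2.39 in Zeb2 cKO, with means of 2.37 ± 0.0234 and 2.36 ± 0.0376 (SD, n = 3 each).

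**Figure D1:**
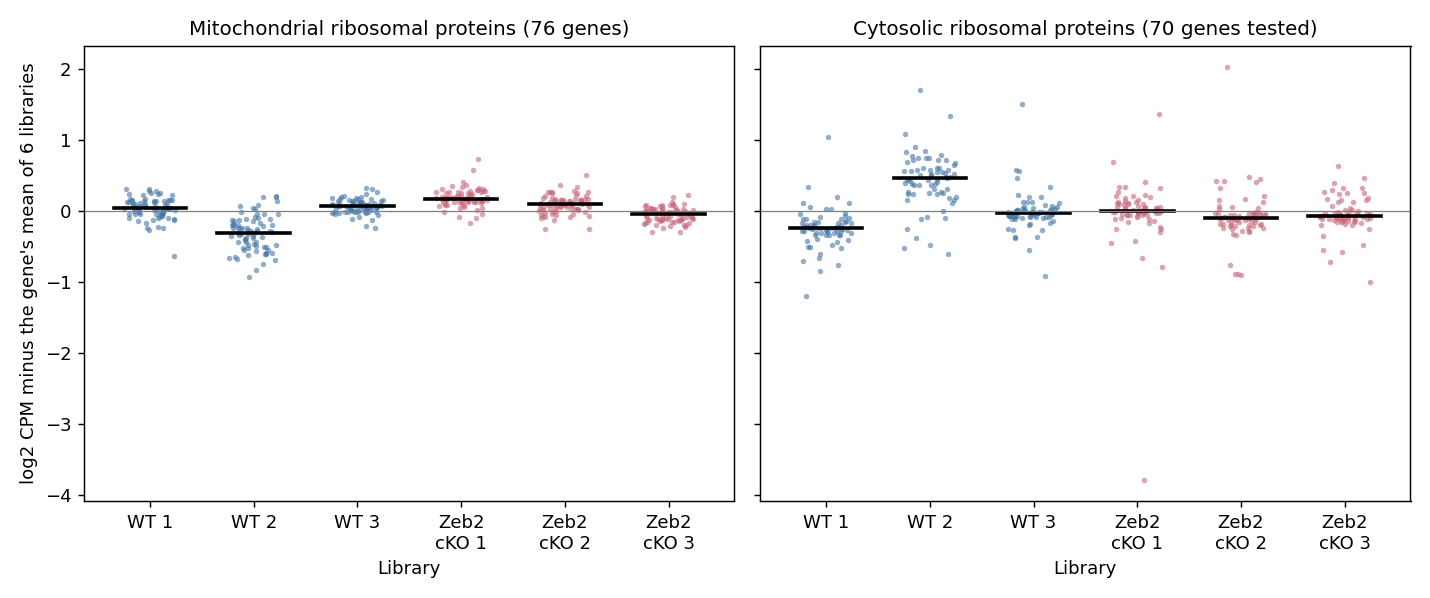
The log2 CPM of each gene minus its mean over the 6 libraries is plotted for every library, on the left for the 76 mitochondrial ribosomal protein genes and on the right for the 70 cytosolic ribosomal protein genes tested; points are genes, black lines are medians, blue marks WT and red Zeb2 cKO. In WT replicate 2 the mitochondrial set has its lowest median, -0.31, and the cytosolic set its highest, 0.45.

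The median log2 fold change of the 76 members was 0.13, against -0.01 over all 14746 genes tested, and it was 0.01 without WT replicate 2. Single members ranged from -0.14 to 0.52, with an SD of 0.13 across genes that was smaller than their median SE of 0.16. Values above 0 were seen in 65 members (85.5%), against 48.6% of all genes tested. Without WT replicate 2 this held for 43 members (56.6%), against 50.9%. A log2 fold change above 0.2 was seen in 22 members (28.9%), against 15.9% of all genes, and without WT replicate 2 in 7 members, against 14.2%. None of the members lay under -0.2 with all libraries, against 22.6% of all genes, and of the members only Mrpl3 did without WT replicate 2, against 11.7%.

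No member passed edgeR's quasi-likelihood test at a Benjamini-Hochberg adjusted p of 0.05, the lowest adjusted p being 0.957, and neither did any of all genes tested (0.0%). At an unadjusted p of 0.05, 1 member was higher (Mrpl14; all genes 1.04%) and 0 were lower (all genes 0.861%). The DESeq2 Wald test also gave 0 members at an adjusted p of 0.05, and 1 higher and 0 lower at an unadjusted one. In 60 of the 76 members (78.9%) the WT libraries had an SD larger than the distance from the WT mean to the Zeb2 cKO mean, and so they did in 78.7% of all genes tested. The groups did not overlap in 4 members. Mrpl14, Mrps18b and Mrpl17 were higher in every Zeb2 cKO library (all genes 3.39%), and Mrpl57 was lower in every Zeb2 cKO library (all genes 2.97%). With 3 libraries against 3, an exact two-sided permutation test cannot go below p = 0.1.

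WT replicate 2 was the lowest of the 6 libraries in 57 members (75%), against 34.6% of all genes tested, and Zeb2 cKO replicate 1 was the highest in 45 members (59.2%), against 17.4%. The median fold between the highest and the lowest library was 1.46 over the members, against 1.63 over all genes tested. With fewer libraries, groups that do not overlap are more frequent for any gene, so each count stands beside the share of all genes tested. Without Zeb2 cKO replicate 3, 26 members were higher without overlap, against 11.8%. Without WT replicates 1, 2 and 3 in turn the numbers were 10, 5 and 8, against 10.9%, 8.07% and 6.61%, and without Zeb2 cKO replicates 1 and 2 they were 4 and 4, against 5.81% and 6.26%. Members lower without overlap numbered 2, 4 and 1 without WT replicates 1, 2 and 3, against 12.1%, 7.46% and 6.57%. They numbered 2, 2 and 1 without Zeb2 cKO replicates 1, 2 and 3, against 5.09%, 5.28% and 10.8%.

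**Figure D2:**
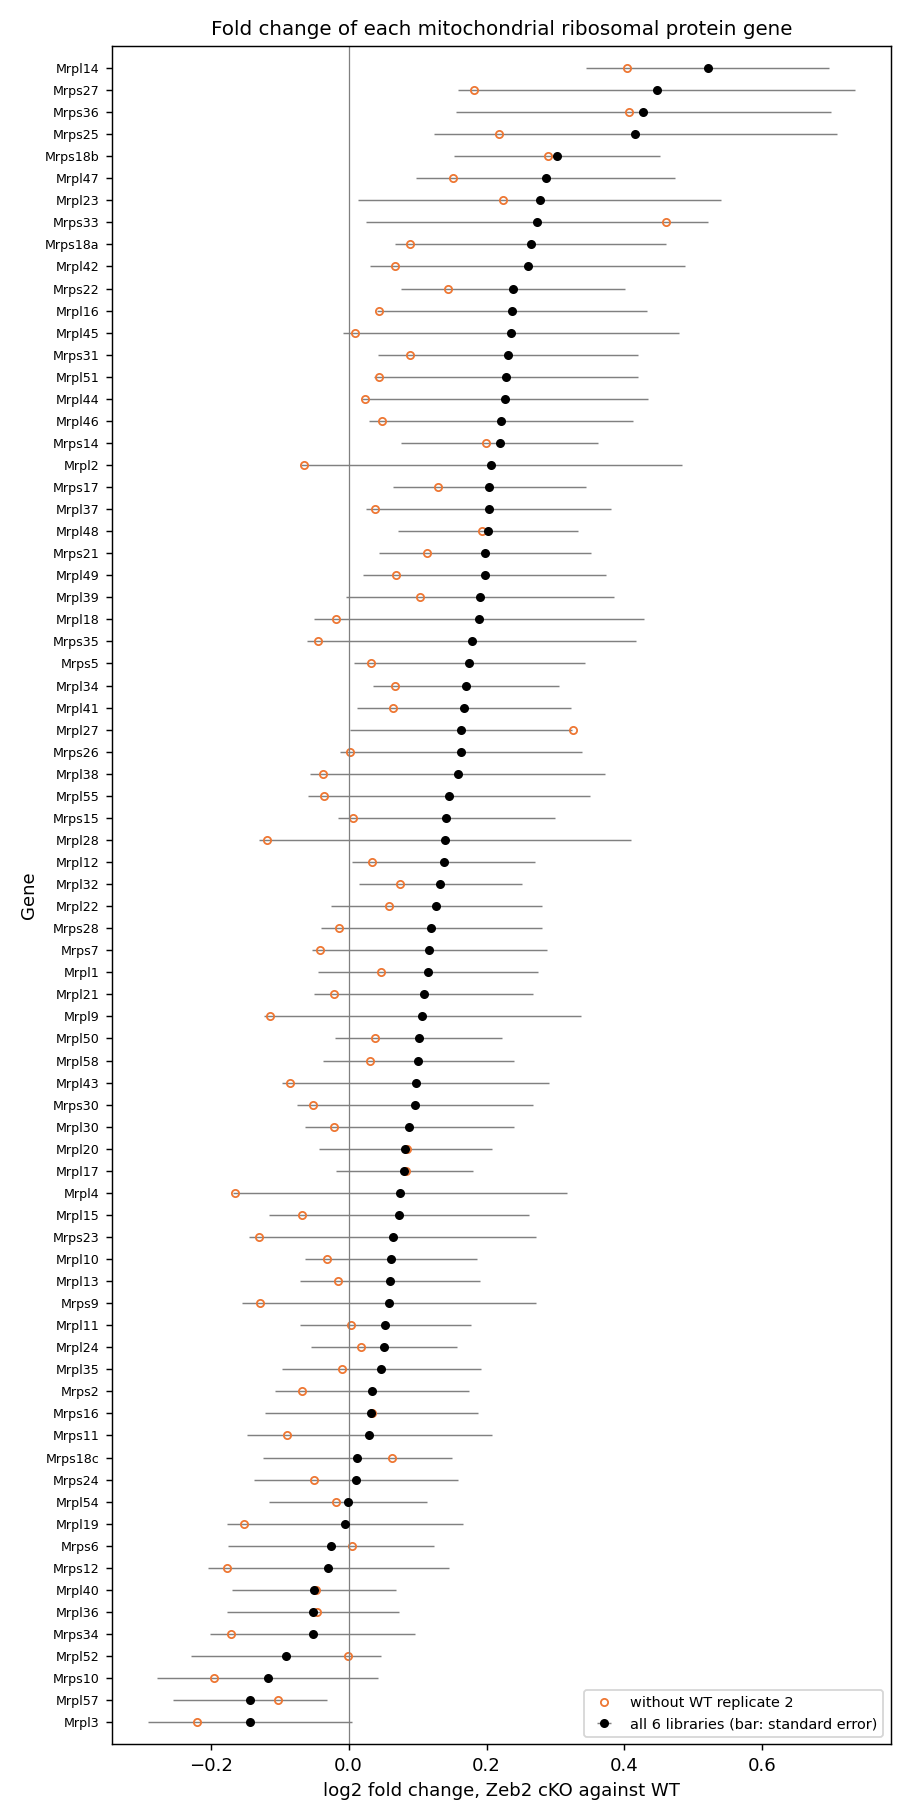
The log2 fold change of Zeb2 cKO against WT is plotted for each of the 76 genes, sorted; black points use all 6 libraries with the standard error as a bar, and open orange points leave out WT replicate 2. The black points lie between -0.14 (Mrpl3) and 0.52 (Mrpl14), with 65 above 0, and without WT replicate 2 the number above 0 is 43.

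Among large subunit genes, Mrpl14 had the largest value of all members. It encodes a conserved protein of bacterial descent at the face where the subunits meet, and lies on chromosome 17 from 45686322 to 45698495 (GRCm38, plus strand). Its levels were 7.86, 6.47 and 9.09 CPM in WT replicates 1, 2 and 3 and 12.3, 11.9 and 9.34 CPM in Zeb2 cKO replicates 1, 2 and 3. Every Zeb2 cKO library was above every WT library, although Zeb2 cKO replicate 3 lay close to WT replicate 3. The log2 fold change was 0.52 ± 0.18 (SE), with p = 0.0214 and an adjusted p of 0.957 (Benjamini-Hochberg) in the quasi-likelihood test of edgeR, and an exact permutation p of 0.1. Without WT replicate 2 it was 0.40, and over all fits that left out 1 library it ranged from 0.40 to 0.64. The number of members higher at an unadjusted p of 0.05 was 0 without Zeb2 cKO replicate 1 and 0 without Zeb2 cKO replicate 2, against 0.5% and 0.865% of all genes, and 1 without Zeb2 cKO replicate 3, against 1.1%. It was 2, 2 and 1 without WT replicates 1, 2 and 3, against 2.04%, 1.55% and 0.809%.

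Mrpl17 was the other large subunit gene with separate groups, and its difference was small. It encodes a protein of bacterial descent and lies on chromosome 7 from 105803206 to 105811099 (minus strand). Its levels were 12.6, 12.7 and 12.9 CPM in WT and 13.5, 13.7 and 13.2 CPM in Zeb2 cKO. All libraries lay close together, with no overlap. The log2 fold change was 0.08 ± 0.10 (SE) and the exact permutation p was 0.1.

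Mrpl57 encodes a protein found only in mitochondrial ribosomes and lies on chromosome 14 from 57826234 to 57829296 (plus strand). Its levels were 7.49, 8.0 and 7.34 CPM in WT and 7.01, 6.59 and 7.07 CPM in Zeb2 cKO. It was lower in each Zeb2 cKO library, with a log2 fold change of -0.14 ± 0.11 (SE). WT replicate 2 was its highest library, the reverse of most members, and without it the value was -0.10.

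Mrpl3, a protein of bacterial descent near the peptidyl transferase centre, had the lowest fold change with Mrpl57. Its levels were 22.6, 21.6 and 28.7 CPM in WT and 20.5, 24.4 and 21.1 CPM in Zeb2 cKO. WT replicate 3 stood above the rest and the other libraries overlapped. The log2 fold change was -0.14 ± 0.15 (SE), and -0.22 without WT replicate 2. Groups overlapped for Mrpl52 too. This gene, found only in mitochondria, stood at 4.46, 5.54 and 4.90 CPM in WT and 4.50, 4.66 and 4.84 CPM in Zeb2 cKO, with a log2 fold change of -0.09 that was 0.00 without WT replicate 2.

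Mrpl12 and Mrpl58 have roles beyond structure and showed small differences. Mrpl12 forms the stalk that recruits translation factors, and stood at 12.5, 9.98 and 12.9 CPM in WT and 13.3, 13.0 and 12.6 CPM in Zeb2 cKO. Its lowest library was WT replicate 2, and the log2 fold change was 0.14, or 0.03 without it. Mrpl58, a peptidyl-tRNA hydrolase that frees stalled peptides, had a log2 fold change of 0.10, or 0.03 without WT replicate 2. Its groups overlapped, from 9.41 to 11.3 CPM in WT and from 9.86 to 12.6 CPM in Zeb2 cKO. Mrps30 and Mrps18a carry small subunit names but sit in the large subunit. Mrps30 had a log2 fold change of 0.10, or -0.05 without WT replicate 2. Mrps18a stood at 18.4, 12.2 and 18.9 CPM in WT and 22.7, 17.9 and 18.7 CPM in Zeb2 cKO, and its log2 fold change of 0.26 was 0.09 without WT replicate 2, its lowest library.

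Among small subunit genes, Mrps18b had separate groups. It encodes a member of the family of mammalian copies of the bacterial S18 protein and lies on chromosome 17 from 35910379 to 35916389 (minus strand). Its levels were 3.40, 3.33 and 3.46 CPM in WT and 4.66, 4.24 and 3.67 CPM in Zeb2 cKO. The WT libraries were nearly level and each Zeb2 cKO library was above them. The log2 fold change was 0.30 ± 0.15 (SE; edgeR p = 0.0838, adjusted p = 0.957 by Benjamini-Hochberg; exact permutation p = 0.1), and 0.29 without WT replicate 2. The gene model Gm13552 holds near-identical sequence over 38.7% of the longest coding transcript of Mrps18b, so that reads may be split between them. Exons of Gm16279 lie opposite 30.5% of the exon bases of Mrps18b. Its paralogue Mrps18c had a log2 fold change of 0.01, with WT from 6.08 to 7.04 CPM and Zeb2 cKO from 6.18 to 7.55 CPM.

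Mrps27 and Mrps25, both found only in mitochondrial ribosomes, had large fold changes with wide spread. Mrps27, which belongs to the pentatricopeptide repeat proteins, stood at 14.0, 6.33 and 11.6 CPM in WT and 12.7, 17.0 and 13.8 CPM in Zeb2 cKO. The groups overlapped and WT replicate 2 was far below the rest. The log2 fold change was 0.45 ± 0.29 (SE), and 0.18 without that library. Mrps25 stood at 14.3, 9.18 and 15.7 CPM in WT and 24.3, 14.9 and 13.1 CPM in Zeb2 cKO, so that 1 high and 1 low library set the difference. Its log2 fold change was 0.42 ± 0.29 (SE), and 0.22 without WT replicate 2. Exons of Nr2c2 lie opposite 69.8% of its exon bases, and Nr2c2 itself had a log2 fold change of -0.10.

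Mrps12, a protein of the decoding centre, had a log2 fold change of -0.03, or -0.18 without WT replicate 2. Its levels were 7.99, 5.67 and 8.10 CPM in WT and 7.91, 6.78 and 6.63 CPM in Zeb2 cKO, with overlapping groups. Mrps10, of bacterial descent, stood at 5.5, 4.31 and 4.79 CPM in WT and 4.82, 3.89 and 4.73 CPM in Zeb2 cKO, with overlapping groups. Its log2 fold change was -0.12, or -0.19 without WT replicate 2 and -0.02 without WT replicate 1. Mrps34, found only in mitochondria, had a log2 fold change of -0.05, with WT from 6.70 to 8.91 CPM and Zeb2 cKO from 7.41 to 8.34 CPM. It shares 37.0% of its exon bases with Nme3 on its own strand. Mrps36, the gene outside the ribosome, stood at 0.664, 0.615 and 0.625 CPM in WT and 1.08, 0.853 and 0.633 CPM in Zeb2 cKO. Its log2 fold change was 0.43 ± 0.27 (SE). It had the fewest counts of the members after Mrpl23, and 44.1% of its longest coding transcript has near-identical copies in other genes.

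**Figure D3:**
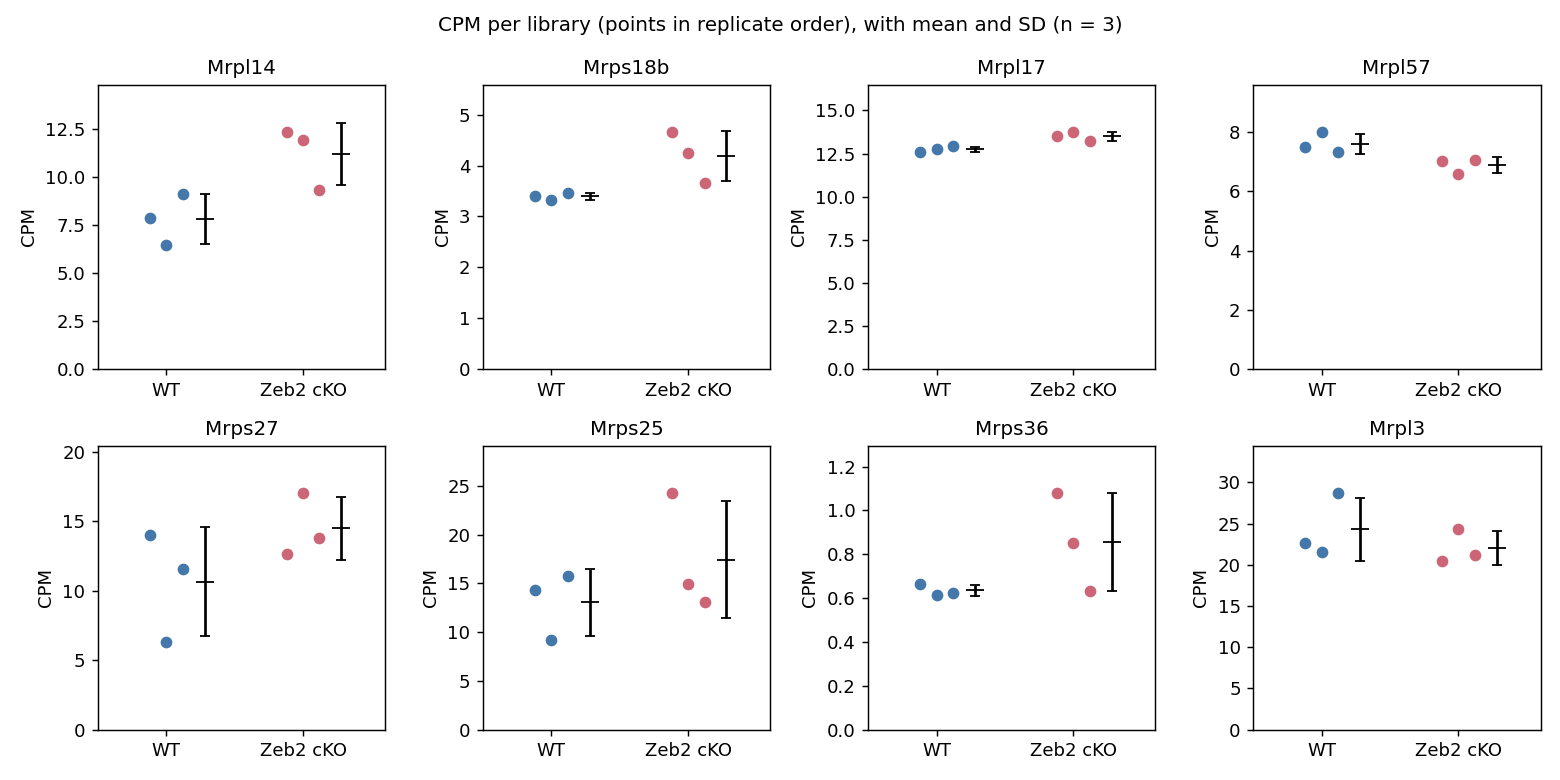
CPM per library is plotted for 8 genes named in the text, with WT in blue and Zeb2 cKO in red, points in replicate order, and the mean and SD (n = 3) as black bars. The groups are separate for Mrpl14, Mrps18b, Mrpl17 and Mrpl57 and overlap for Mrps27, Mrps25, Mrps36 and Mrpl3.

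By subunit, the median log2 fold change was 0.13 for the 49 large subunit genes and 0.13 for the 26 small subunit genes, and 0.02 and 0.01 without WT replicate 2. By descent, it was 0.11 for the 29 large subunit genes of bacterial type and 0.18 for the 20 found only in mitochondria. In the small subunit it was 0.05 for the 16 of bacterial type and 0.24 for the 10 found only in mitochondria. Without WT replicate 2 these 4 medians were -0.01, 0.03, 0.00 and 0.12, and no test was made of their differences.

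Promoter sequences of the 2 members with the highest fold change among those with separate groups are shown with the stretch from 250 bases before the start to 50 after it (RefSeq, GRCm38.p6), because they show which known motifs of mitochondrial genes were or were not in these windows. Both windows are on chromosome 17, Mrpl14 at chr17:45686099-45686398 on the plus strand and Mrps18b at chr17:35916391-35916690 on the minus strand. Capitals mark the shorter cores of the NRF1 motif (GCATGCG) and of the ETS motif (CCGGAAG) on either strand; the first NRF1 site of Mrps18b reads as the core on both strands, which overlap.
Mrpl14: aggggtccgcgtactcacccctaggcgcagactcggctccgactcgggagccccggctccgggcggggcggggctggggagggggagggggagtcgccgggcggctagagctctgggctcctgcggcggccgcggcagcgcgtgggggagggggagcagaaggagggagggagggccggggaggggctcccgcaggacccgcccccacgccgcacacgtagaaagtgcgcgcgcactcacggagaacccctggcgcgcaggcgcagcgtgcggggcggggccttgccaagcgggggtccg
Mrps18b: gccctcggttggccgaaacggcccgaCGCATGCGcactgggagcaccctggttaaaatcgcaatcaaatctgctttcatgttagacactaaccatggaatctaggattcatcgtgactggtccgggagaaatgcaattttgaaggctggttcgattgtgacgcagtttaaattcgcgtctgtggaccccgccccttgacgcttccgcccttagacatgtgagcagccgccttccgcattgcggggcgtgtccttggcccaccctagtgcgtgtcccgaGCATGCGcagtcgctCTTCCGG
Neither of these motifs nor the YY1 motif (AAGATGGCG, core GATGGCG) was found in the Mrpl14 window, which says only that these letters are not in it.

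The motif letters were counted across the 67 members with a promoter in the table. The full NRF1 letters GCGCATGCG were in 7 members (10.4%), against 4.03% of 10246 tested protein-coding genes and 1.75% of all 32851 promoters, and its core was in 7 (10.4%), against 7.10% and 3.58%. The full ETS letters ACCGGAAG were in 9 members (13.4%), against 5.19% and 2.30%, and its core in 24 (35.8%), against 19.4% and 8.86%. The full YY1 letters were in 8 members (11.9%), against 3.43% and 1.40%, and its core in 8 (11.9%), against 7.23% and 3.49%. Both strands were searched, and no test was made of these shares. Members with and without the letters had similar medians of log2 fold change, 0.13 and 0.14 for NRF1, 0.10 and 0.15 for ETS, and 0.13 and 0.14 for YY1.

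Many members start back to back with another gene. In 29 of the 76 (38.2%) a gene on the opposite strand started within 1000 bases, against 13.7% of 13050 tested protein-coding genes, by the nearest pair of annotated protein-coding transcript starts in Gencode M21. The 26 partners that were tested had a median log2 fold change of 0.12, or 0.00 without WT replicate 2. Of these 26, 21 were above 0, against 48.6% of all genes tested. The partners include Mrps11 and Mrpl46, which are members themselves, so the sets are not separate. Mrpl14 starts 63 bases from Tmem63b, a membrane protein gene, which stood at 38.9, 17.2 and 33.7 CPM in WT and 47.0, 43.8 and 36.8 CPM in Zeb2 cKO. Exons of Tmem63b lie opposite 11.2% of the exon bases of Mrpl14, and without the counting strand their reads cannot be told apart there. The groups of Tmem63b overlapped, with a log2 fold change of 0.51 ± 0.29 (SE) that was 0.23 without WT replicate 2. Mrps18b starts 177 bases from Ppp1r10, which had a log2 fold change of 0.25.

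A pair of members, Mrpl46 and Mrps11, share such a start on chromosome 7, 30 bases apart by their nearest Gencode transcript starts, and their RefSeq promoter windows overlap (chr7:78782881-78783180 on the plus strand for Mrps11 and chr7:78783040-78783339 on the minus strand for Mrpl46). The windows are shown because they are the shared start of a large and a small subunit gene. Capitals mark the YY1 core, found on the minus strand of the Mrps11 window.
Mrps11: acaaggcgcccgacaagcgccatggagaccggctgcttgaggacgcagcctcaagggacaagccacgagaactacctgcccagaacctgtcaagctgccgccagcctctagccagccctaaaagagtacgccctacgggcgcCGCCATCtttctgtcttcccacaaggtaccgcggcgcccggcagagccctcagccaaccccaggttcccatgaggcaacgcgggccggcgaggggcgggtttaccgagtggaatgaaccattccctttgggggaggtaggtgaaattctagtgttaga
Mrpl46: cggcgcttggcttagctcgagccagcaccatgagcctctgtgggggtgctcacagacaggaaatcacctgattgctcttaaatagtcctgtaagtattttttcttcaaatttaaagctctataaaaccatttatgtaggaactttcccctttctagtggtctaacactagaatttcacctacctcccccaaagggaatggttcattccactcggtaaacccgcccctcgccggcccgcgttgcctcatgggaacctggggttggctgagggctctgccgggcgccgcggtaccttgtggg
Mrps11 stood at 4.94, 4.37 and 6.59 CPM in WT and 5.62, 5.44 and 5.17 CPM in Zeb2 cKO, and Mrpl46 at 9.88, 6.84 and 10.9 CPM in WT and 11.7, 10.8 and 9.73 CPM in Zeb2 cKO. WT replicate 2 was the lowest library of both. Their log2 fold changes were 0.03 and 0.22, and -0.09 and 0.05 without that library.

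Levels differed far more between members than between groups. Per kilobase of exon, the mean level over the 6 libraries ranged from 0.0949 CPM per kilobase for Mrpl23 to 27.98 for Mrps23, with a median of 5.16 and quartiles of 2.60 and 8.76. Mrps23, found only in mitochondria, was followed by Mrps21 (19.6 CPM per kilobase), Mrpl34 (18.8), Mrpl55 (18.5) and Mrpl18 (17.6). Mrps10 (0.578) and Mrps36 (0.585) were next to Mrpl23 at the bottom. The median was 6.35 CPM per kilobase for large subunit genes and 4.02 for small subunit genes. The order of the members was nearly the same in both groups, with Spearman's rho of 0.993 across the 76 genes between the group means, which share the same gene lengths.

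Single libraries of the extreme genes showed the same overlap. Mrps23 stood at 46.0, 30.2 and 51.8 CPM in WT and 48.9, 42.4 and 42.5 CPM in Zeb2 cKO, with a log2 fold change of 0.06 that was -0.13 without WT replicate 2. Mrpl23 stood at 0.425, 0.387 and 0.443 CPM in WT and 0.540, 0.576 and 0.409 CPM in Zeb2 cKO. Near-identical sequence in its pseudogene Mrpl23-ps1 covers 68.9% of the longest coding transcript of Mrpl23. That pseudogene held 5.83 ± 0.247 CPM in WT and 6.68 ± 1.23 CPM in Zeb2 cKO (SD, n = 3 each). The low level of Mrpl23 is therefore uncertain. The levels depend on the length used. Per kilobase of the longest coding transcript, the median member stood at 8.15 CPM per kilobase, the highest was Mrpl42 (71.5) and Mrpl23 was again the lowest (0.630), with Spearman's rho of 0.850 between the 2 length choices across the 76 genes.

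**Figure D4:**
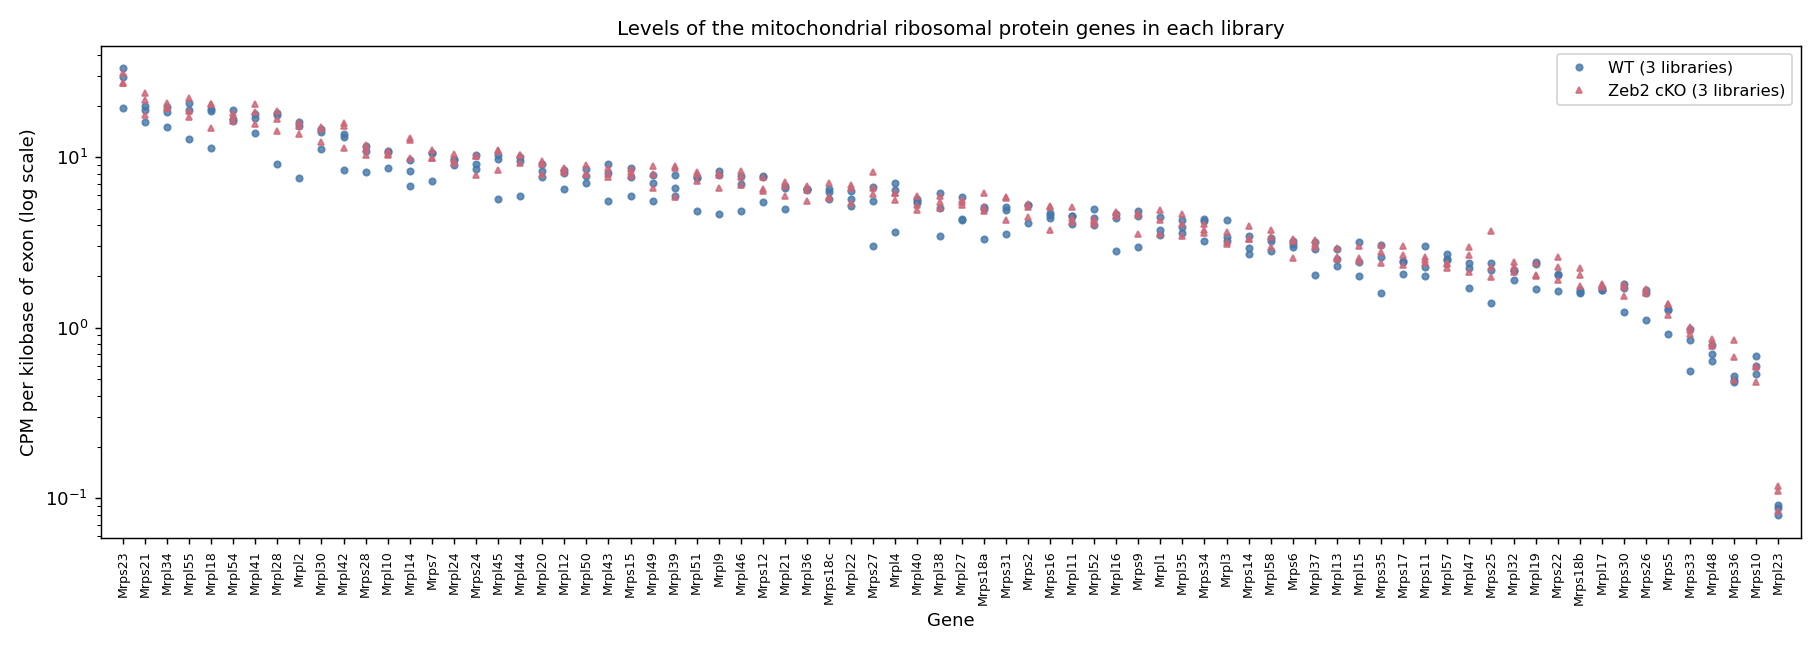
CPM per kilobase of exon is plotted on a log scale for each of the 76 genes in each library, sorted by mean level, with WT as blue circles and Zeb2 cKO as red triangles. Mean levels span 0.0949 (Mrpl23) to 27.98 (Mrps23) CPM per kilobase, while the median fold between the highest and the lowest library of a gene is 1.46.

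Other genes of mitochondrial translation, named without the Mrp symbol, had medians close to those of the members. None passed the test at an adjusted p of 0.05 or at an unadjusted p of 0.05. Among 5 further ribosome-associated proteins the median log2 fold change was 0.14, with 4 above 0, led by Ptcd3 (0.21), a small subunit pentatricopeptide protein, Gadd45gip1 (0.17) and Dap3 (0.14), a small subunit GTP-binding protein. Among 29 assembly factors it was 0.12, with 28 above 0. The rRNA methyltransferases Mrm3, Trmt2b and Mrm2 had 0.32, 0.29 and 0.28, or 0.09, 0.17 and 0.17 without WT replicate 2. Without WT replicate 2 both medians were -0.02.

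Among 16 translation factors the median was 0.13, with 12 above 0. Tufm, the elongation factor that brings tRNAs to the ribosome, had 0.36 ± 0.24 (SE), or 0.13 without WT replicate 2. It was higher in every Zeb2 cKO library (all genes 3.39%), but Zeb2 cKO replicate 3 (6.25 CPM) lay close to WT replicate 3 (6.20 CPM). The mRNA-stabilising Lrpprc had 0.42 and the release factor Mtrf1 0.30, or 0.17 and 0.23 without WT replicate 2. Among 20 mitochondrial tRNA synthetases the median was 0.17, with 17 above 0, and Pars2 had 0.43 ± 0.19 (SE) with separate groups and Wars2 -0.18. Among 13 genes of mitochondrial DNA replication and transcription the median was 0.11, with 9 above 0. The single-stranded DNA-binding protein Ssbp1 had 0.22 and separate groups, Polg2 0.35 and the transcription factor Tfb2m -0.19. Without WT replicate 2 these 3 medians were -0.04, -0.03 and -0.02.

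The listed nuclear regulators had a median below 0. Of 11, 3 were above 0, with a median of -0.08 (-0.10 without WT replicate 2). The 3 of smallest p were Yy1 (-0.24), Sp1 (-0.28) and Myc (-0.57), which had -0.10, -0.04 and -0.13 without WT replicate 2. None passed the test at an adjusted or unadjusted p of 0.05.

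Genes of the cytosolic ribosome, which translates nuclear mRNAs, also had a median below 0. Of 75 genes, 70 were tested, with a median log2 fold change of -0.15 and 14 above 0, and without WT replicate 2 the median was 0.10 with 55 of 71 above 0. At an unadjusted p of 0.05, Rpl21 was higher (log2 fold change 2.03, groups overlapping) and Rplp1 lower (-0.56), and none passed at an adjusted p of 0.05. Their summed level was 1237, 2081 and 1455 CPM in WT and 1460, 1353 and 1393 CPM in Zeb2 cKO. Rps16, Rps27, Rps29, Rpl23a and Rpl38 did not pass the filter and were at most 0.32 CPM in any library. The handling of multi-mapping reads is not given, and the effect of near-identical copies on the cytosolic genes was not tested. WT replicate 2 was the highest of the 6 libraries in 53 of the 70, whereas it was the lowest in 57 of the 76 mitochondrial ribosomal protein genes. Without this library the medians of the lists moved in opposite directions. Beside these, the fibroblast markers had a median of -1.03 (0.05 without WT replicate 2), the macrophage markers -0.89 (0.09), the cardiomyocyte markers 0.18 (-0.06) and the endothelial markers 0.16 (0.02). None of these 32 markers passed the test at an unadjusted p of 0.05, and the part of cell composition in the members' values was not tested. Of 6 adipocyte markers only Cfd and Fabp4 passed the filter, with log2 fold changes of 1.28 ± 0.61 and 0.22 ± 0.20 (SE). Adipoq, Cidec and Plin1 were at most 0.13 CPM in WT and 0.50 CPM in Zeb2 cKO, too low to be tested. Each was higher in every Zeb2 cKO library, as were 3.39% of all genes tested. Lep was at 0 in 4 of 6 libraries. The adipocyte markers summed to between 125 and 177 CPM in WT and between 162 and 216 CPM in Zeb2 cKO, of which nearly all was Fabp4. The 4 mesothelial markers summed to between 4.17 and 7.86 CPM in WT and between 5.76 and 7.86 CPM in Zeb2 cKO, with a median log2 fold change of 0.23 (0.99 without WT replicate 2).

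The RNAs with which these proteins assemble come from mitochondrial DNA. Of 13 mitochondrially encoded mRNAs 7 were tested, with a median log2 fold change of -0.13 that was -0.20 without WT replicate 2. The mRNAs not tested, mt-Co2, mt-Co3, mt-Atp6, mt-Atp8, mt-Nd3 and mt-Nd4l, were at most 0.07 CPM in any library. The median therefore covers only part of these mRNAs. The complex I subunit mt-Nd4 was lower in every Zeb2 cKO library, with -0.33 ± 0.23 (SE), or -0.39 without WT replicate 2. Of its complex, mt-Nd1 had 0.24 and mt-Nd5 -0.18, or 0.18 and -0.32 without that library. The values of mt-Rnr1 and mt-Rnr2 were -0.06 and -0.08, with standard errors of 0.42 and 0.80. The libraries were depleted of rRNA, so that these levels also carry what depletion left behind.

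**Figure D5:**
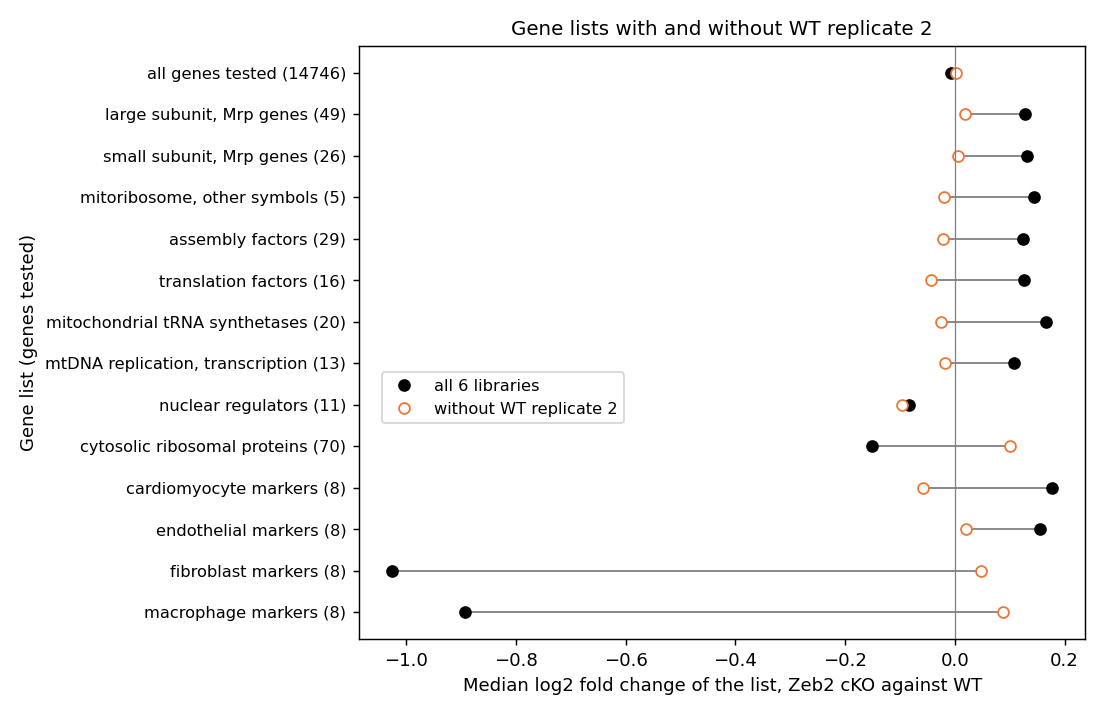
The median log2 fold change of Zeb2 cKO against WT is plotted for 14 gene lists, with the number of genes tested in brackets; black points use all 6 libraries and open orange points leave out WT replicate 2. Both subunits lie at 0.13 with all libraries and at 0.02 and 0.01 without that library, while the fibroblast and macrophage markers go from -1.03 and -0.89 to 0.05 and 0.09.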

How the data were processed

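RNA of infarcted heart tissue from 3 WT and 3 Zeb2 cKO mice was sequenced as stranded libraries depleted of ribosomal RNA. The authors deposited raw counts per gene, made by them with the STAR workflow on the Gencode M4 annotation (GRCm38). The STAR settings, the handling of multi-mapping reads and the strand used in counting are not given in the sources used here. Samples were grouped by the deposited labels, and no column was left unmatched (0).

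Genes were filtered with filterByExpr, scaled by TMM and compared with edgeR's quasi-likelihood test (edgeR 4.0.16, R 4.3.3) over the 6 libraries without a block. Benjamini-Hochberg adjustment ran over all 14746 genes tested. CPM values use TMM-scaled library sizes that include mitochondrial counts. Exon lengths and overlaps came from Gencode M21, on the same build, and near-identical stretches (at least 75 bases at 95% identity) from BLAST 2.17.0. The script was tested on simulated data. Where exons lie opposite another gene the count cannot be assigned to a strand with certainty. P-values measure the spread between these libraries, which the series describes as coming from 3 mice per group.

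Alternatives were DESeq2 size factors, the DESeq2 Wald test (DESeq2 1.42.0), no filter, a replicate block, no mitochondrial genes, each library left out, and shorter motif cores; members free of overlaps and copies, and the longest coding transcript as length, were added after seeing the data. The members, gene lists and tests were chosen with earlier results of these data known. Genes named in the text were Zeb2, members with separate groups, the 5 highest and 5 lowest fold changes, the 5 highest and 3 lowest levels per kilobase, 8 fixed members, and the 3 of smallest p in each list, of which 1 is not reported here; Mrpl27, Mrpl42, Mrpl46, Mrps11, Mrpl53 and the partners or copies of members were named after their values were seen.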

Additional observations from a re-analysis of the deposited data

How the results depend on the processing

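Other scaling, test, filter, block or leaving out mitochondrial genes changed the direction of no named gene's fold change or list median, and the members called at p or without overlap numbered the same where these were recomputed. Members with ETS letters numbered 24 with the shorter core in place of 9, and the median level was 8.15 CPM per kilobase with the longest coding transcript in place of 5.16. The median log2 fold change of the members was 0.13, and 0.14 with DESeq2, 0.13 with DESeq2 size factors, 0.15 without a filter, 0.13 without mitochondrial genes, 0.10 over the 29 members free of overlaps and copies, and 0.14 with the replicate number as a block, where 1 member was again higher at an unadjusted p of 0.05. Same-numbered libraries did not deviate together (correlations 0.0878, -0.137 and -0.0869), against -0.263 to 0.238 between differently numbered ones. These correlations gave no sign of pairing, but with 3 libraries per group they cannot exclude a shared batch. Leaving out each library in turn, the median ranged from 0.01 (without WT replicate 2) to 0.20, the members higher at an unadjusted p of 0.05 from 0 to 2, those higher without overlap from 4 to 26 and those lower without overlap from 1 to 4. Without WT replicate 2 the 2 were Mrpl14 and Mrpl27 (log2 fold change 0.33), the latter with near-identical copies over 73.0% of its longest coding transcript. The fold changes of 34 of the 76 members took both signs when libraries were left out. Among the genes chosen by the naming rule they ranged from -0.17 to 0.0202 for Mrps34, -0.13 to 0.228 for Mrps23, -0.0353 to 0.29 for Mrpl55, -0.0183 to 0.331 for Mrpl18, -0.176 to 0.0579 for Mrps12, -0.0844 to 0.0659 for Mrps18c, -0.0522 to 0.206 for Mrps30, -0.0183 to 0.315 for Gadd45gip1, -0.0193 to 0.24 for Dap3, -0.351 to 0.00662 for mt-Nd5, -0.121 to 0.045 for mt-Rnr1 and -0.234 to 0.0394 for mt-Rnr2. The cause was not tested. Standard errors were 0.26 and 0.27 for Mrpl23 and Mrps36, which had the fewest counts, and 0.29 for the well-counted Mrps25 and Mrps27, against a median of 0.16.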
